A study of Mus musculus with 38 samples.

Results

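The Igf2r and Airn imprinted domain of mouse chromosome 17 was described here through 4 genes, Igf2r, Airn, Slc22a2 and Slc22a3, of the 32093 protein-coding and long non-coding RNA genes of GENCODE M21 on chromosomes 1 to 19, X and Y. The genes were chosen by name, with results of the same comparison of IκBα-WT and IκBα-KO cells already known, so every value that sets the genotypes against each other is a description and carries no test. The cells were ES-E14TG2a mouse embryonic stem cells (mESCs) grown with serum and LIF, which holds them undifferentiated, and harvested at 0 h of differentiation. IκBα-KO clones had been made with 2 CRISPR guides against exon 1 of Nfkbia, the gene of the NF-κB inhibitor IκBα, and IκBα-WT clones had received guides without a target. Chromatin immunoprecipitation followed by sequencing (ChIP-seq) was available for H3K4me3, H3K27me3, H3K9me3, H3K27ac and H3K4me1, with 3 IκBα-WT and 3 IκBα-KO libraries for each mark, which the study describes as separate clones. The lists do not separate the parental alleles, so a call can come from either allele or from both.

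Igf2r encodes the cation-independent mannose 6-phosphate receptor, which carries the growth factor IGF2 to lysosomes, and Slc22a2 and Slc22a3 encode the organic cation transporters OCT2 and OCT3. Airn is a long non-coding RNA that starts inside Igf2r and is transcribed in the opposite direction. Its promoter lies in the imprint control element of the domain, which is DNA-methylated on the maternal allele from the oocyte onwards. Airn transcription from the paternal allele can silence Igf2r, and in the placenta Slc22a2 and Slc22a3, in cis. Whether it does so in these undifferentiated cells cannot be read from the calls. At imprint control elements the methylated allele is known to carry H3K9me3, placed by SETDB1 with TRIM28 and the zinc finger protein ZFP57, which binds TGCCGC when its CpG is methylated, whereas the unmethylated allele can carry H3K4me3. H3K27me3 marks Polycomb-repressed sequence, and H3K4me1 and H3K27ac mark enhancers, the latter also active promoters.

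On GRCm38, Igf2r (ENSMUSG00000023830) is on the minus strand at chr17:12682406-12769664, and Airn (ENSMUSG00000078247) is on the plus strand at chr17:12741311-12860136. The 5′ end of Airn lies 28353 bp from that of Igf2r, within intron 2 of Igf2r, so the 2 genes share 28354 bp and any call there counts for both. Slc22a2 (ENSMUSG00000040966, plus strand, chr17:12584132-12628488) and Slc22a3 (ENSMUSG00000023828, minus strand, chr17:12418960-12507704) have their 5′ ends 157179 and 233607 bp upstream of that of Airn. A gene window was the gene with 5 kb on either side, a promoter window the 5001 bp centred on the annotated 5′ end, and the whole domain the 451177 bp from 5 kb below Slc22a3 to 5 kb beyond Airn.

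The sequences on which the H3K4me3 result turned were those shared by the peaks of all 3 IκBα-KO libraries at the Airn promoter. The first shared segment was 264 bp long and held the end of Airn exon 1, and the second was 417 bp long, of which the central 300 bp are given and which lies in Airn intron 1. Both lie in Igf2r intron 2. They are shown from 5′ to 3′ on the plus strand of GRCm38, with each match to TGCCGC, on either strand, in capitals. The 250 bases upstream of the RefSeq start of Igf2r, on the minus strand, stand beside them for the other promoter of the pair. They were not chosen by H3K4me3 peaks and held no match, whereas the whole Igf2r promoter window held 3.
Airn first segment, chr17:12741405-12741668: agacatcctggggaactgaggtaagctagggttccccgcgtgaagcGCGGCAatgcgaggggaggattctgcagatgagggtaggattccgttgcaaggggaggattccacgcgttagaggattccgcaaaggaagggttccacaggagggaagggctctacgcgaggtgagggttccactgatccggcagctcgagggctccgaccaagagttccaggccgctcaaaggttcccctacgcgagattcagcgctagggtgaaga
Airn second segment, chr17:12742356-12742655: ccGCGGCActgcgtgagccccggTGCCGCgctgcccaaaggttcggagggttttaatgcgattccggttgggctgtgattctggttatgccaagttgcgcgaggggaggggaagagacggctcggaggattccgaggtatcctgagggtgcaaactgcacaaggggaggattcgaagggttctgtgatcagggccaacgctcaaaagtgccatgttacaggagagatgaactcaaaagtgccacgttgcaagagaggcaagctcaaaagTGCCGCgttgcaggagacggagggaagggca
Igf2r upstream, chr17:12769707-12769956: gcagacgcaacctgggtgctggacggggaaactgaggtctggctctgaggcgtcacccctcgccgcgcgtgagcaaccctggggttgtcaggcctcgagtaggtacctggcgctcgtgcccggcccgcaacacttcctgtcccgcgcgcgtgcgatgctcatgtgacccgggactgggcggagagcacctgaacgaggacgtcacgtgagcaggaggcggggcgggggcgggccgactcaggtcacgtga

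The segments held 18 and 20 CpG dinucleotides and the Igf2r sequence 27, with observed over expected ratios of 0.81, 0.85 and 0.91. The Airn promoter window held 8 matches to TGCCGC on both strands together, without overlap between matches, and 0.196% of 32093 gene windows of this length held as many. The Igf2r window held 3, a number reached by 10.6% of windows, and the Slc22a2 and Slc22a3 windows 1 each, reached by 50.5%. CpG number did not set the Airn window apart to the same degree, since its 124 CpGs were reached by 27.5% of windows and the 157 of Igf2r by 14.7%.

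The lists differed between the genotypes across the genome as well. The IκBα-WT libraries had 21836 to 23638 H3K4me3 peaks and the IκBα-KO libraries 23736 to 26806. H3K9me3 calls covered 202 to 207 Mb in the IκBα-WT and 172 to 186 Mb in the IκBα-KO, and H3K4me1 calls 486 to 488 and 476 to 483 Mb. H3K27me3 calls covered 214 to 259 Mb in the IκBα-WT and 267 to 278 Mb in the IκBα-KO, and H3K27ac calls 380 to 393 and 411 to 419 Mb. For each mark the groups were apart in the measure given here, but not always in the other measure. In covered sequence the H3K4me3 groups overlapped, and in number of calls those of H3K9me3, H3K27me3 and H3K4me1 overlapped. The H3K27ac groups were apart in both, with more covered sequence but fewer calls in the IκBα-KO. The part of these genome-wide differences in the values of the domain was not tested. Calls of H3K9me3 held 8548342 to 12105343 ChIP reads a library, those of H3K27me3 8910890 to 10938375, those of H3K4me1 34736939 to 35951506 and those of H3K27ac 22943091 to 28339766. H3K4me3 at the promoter of Nfkbia covered 1226, 1168 and 1523 bp in the IκBα-WT and 235, 820 and 1056 bp in the IκBα-KO, without overlap in this window but with overlap from 5000 bp upstream to 100 bp downstream, and 7.31% of promoters with an H3K4me3 call were lower in every IκBα-KO library. Of 8 mESC markers, 7 had H3K27ac at the promoter in all 6 libraries, as did 3 of 3 neural markers (Pax6, Neurod1 and Tubb3), 1 of 6 fibroblast markers (Thy1) and 1 of 3 endoderm markers (Foxa2). H3K4me3 was called in all 6 libraries at 6 mESC, 3 neural, 3 fibroblast and 1 endoderm markers. H3K27me3 was called in all 6 libraries at 2 mESC markers (Esrrb and Klf4) and at 3 neural, 5 fibroblast and 3 endoderm markers. Input reads in the megabase of chromosome 17 that holds Igf2r and Airn, as log2 of IκBα-KO over IκBα-WT relative to the genome median, stood at 0.0016, 0.057, 0.016 and 0.0069 in the H3K27me3, H3K9me3, H3K27ac and H3K4me1 lists, within the SD of 0.14 to 0.16 over all such windows.

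Chromatin at the Airn promoter differed between the genotypes in the H3K9me3 calls first of all. A single wide H3K9me3 call lay over the Airn promoter in all 3 IκBα-WT libraries, and none of the 3 IκBα-KO libraries had a call anywhere in it. The calls ran over chr17:12732601-12749800 in IκBα-WT replicate 1, chr17:12732801-12751200 in replicate 2 and chr17:12732201-12749800 in replicate 3. They were 17.2, 18.4 and 17.6 kb wide, held 79.9, 66.7 and 67.0 ChIP reads per kb, and stood at 3.90, 3.76 and 3.97 times their input. The sequence common to them was 17000 bp long, almost centred on the Airn 5′ end (8510 bp upstream to 8489 bp downstream), and spanned Igf2r introns 1 to 6. It held 9 matches to TGCCGC, of which 8 lay 140 to 1314 bp downstream of the Airn 5′ end, and 12.9 CpGs per kb, against 9.32 over chromosome 17.

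Covered sequence in the Airn promoter window was therefore 5001 bp in each IκBα-WT library and 0 bp in each IκBα-KO library. Of the 5994 gene promoters with an H3K9me3 call in any library, 2.5% had calls in 3 of 3 IκBα-WT and 0 of 3 IκBα-KO libraries, and 6.46% had lower covered bp in every IκBα-KO than in every IκBα-WT library. Among merged H3K9me3 regions of the genome, 2.58% were called in 3 of 3 IκBα-WT and 0 of 3 IκBα-KO libraries. An absent call means that the reads stayed under the threshold of the caller, not that they were 0, and the lists give no reads there. Calls of 15 to 20 kb elsewhere reached down to 1.06 to 1.09 times input in the IκBα-KO lists, and their medians were 3.80 to 4.71.

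**Figure D1:**
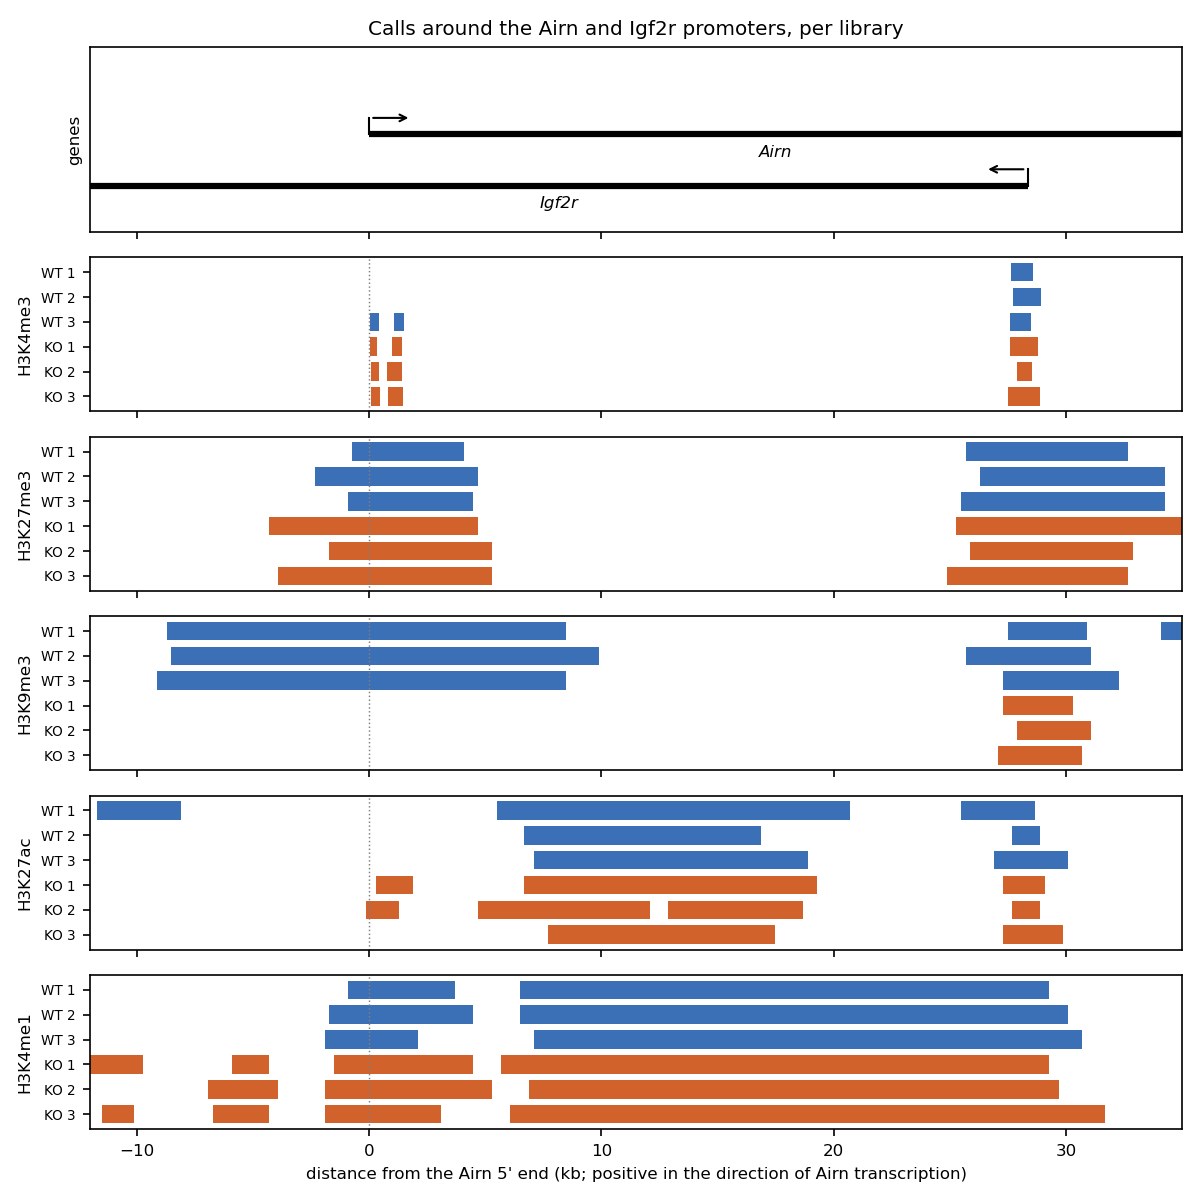
Calls of the 5 marks in each of 3 IκBα-WT (blue) and 3 IκBα-KO (orange) libraries around the Airn and Igf2r promoters, against distance from the Airn 5′ end in kb, with both genes as lines and their start sites as arrows. The wide H3K9me3 call over the Airn start is drawn in the 3 IκBα-WT libraries and in 0 of 3 IκBα-KO libraries, while the Igf2r promoter, 28353 bp away, holds calls of all 5 marks in every library.

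H3K4me3, the mark of active promoters, was found at the Airn promoter in every IκBα-KO library and in 1 IκBα-WT library. The covered sequence was 0, 0 and 786 bp in the IκBα-WT and 787, 994 and 1024 bp in the IκBα-KO, with means of 262 ± 454 and 935 ± 129 bp (SD, n = 3 each). The groups did not overlap, but IκBα-WT replicate 3 and IκBα-KO replicate 1 were 1 bp apart, and of all 16370 promoters with an H3K4me3 call 21.4% had higher covered bp in every IκBα-KO library. Each library with calls had 2 peaks. Their folds over input were 3.11 and 5.19 in IκBα-WT replicate 3, 7.90 and 6.02 in IκBα-KO replicate 1, 5.31 and 8.57 in replicate 2, and 6.54 and 7.01 in replicate 3. The higher of the pair was thus 5.19 in the IκBα-WT library and 7.83 ± 0.78 (SD, n = 3) in the IκBα-KO libraries. The summits lay 172 to 305 and 998 to 1229 bp downstream of the Airn 5′ end, inside the sequence that carried H3K9me3 in the IκBα-WT.

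H3K4me1 was called at the Airn promoter in all 6 libraries and was denser in the IκBα-KO. The calls held 52.6, 45.8 and 54.8 ChIP reads per kb in the IκBα-WT libraries and 81.5, 65.8 and 77.2 in the IκBα-KO libraries. Means were 51.1 ± 4.67 and 74.8 ± 8.09 reads per kb (SD, n = 3 each), a ratio of 1.47, and the groups did not overlap. Of 20361 promoters called in all 6 libraries, 8.43% had a higher H3K4me1 density in every IκBα-KO library. The calls were of similar width, 4.6, 6.2 and 4.0 kb against 6.0, 7.2 and 5.0 kb, and the ratio of ChIP to input was 1.49 ± 0.19 and 2.24 ± 0.17 (SD, n = 3 each), without overlap, as in 22.5% of these promoters. A further H3K4me1 region, within chr17:12734401-12737400 in Igf2r introns 4 and 5, was called in 3 of 3 IκBα-KO and 0 of 3 IκBα-WT libraries, as were 1.49% of merged H3K4me1 regions. Another H3K4me1 region of the domain, outside the windows of the 4 genes, had calls in 3 of 3 IκBα-WT and 0 of 3 IκBα-KO libraries, as did 2.09% of merged regions. The region called in the IκBα-KO lay inside the sequence of the IκBα-WT H3K9me3 call.

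H3K27ac was called at the Airn promoter in IκBα-KO replicates 1 and 2 and in no other library. These calls covered 1600 and 1400 bp at 51.3 and 60.0 ChIP reads per kb, and 1.37 and 1.59 times input. With IκBα-KO replicate 3 at 0 bp, like the IκBα-WT libraries, the groups overlapped.

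H3K27me3 lay over the Airn promoter in all 6 libraries. The calls were 4.8, 7.0 and 5.4 kb wide with 44.4, 41.1 and 47.4 ChIP reads per kb in the IκBα-WT, and 9.0, 7.0 and 9.2 kb wide with 50.6, 56.6 and 46.1 reads per kb in the IκBα-KO. Means were 44.3 ± 3.13 and 51.1 ± 5.26 reads per kb (SD, n = 3 each), and the groups overlapped. The ratio of ChIP to input, which takes depth into account, was 2.18, 2.32 and 2.48 in the IκBα-WT and 2.76, 3.21 and 2.56 in the IκBα-KO, without overlap, but 22% of 9446 promoters called in all 6 libraries were higher in every IκBα-KO library by this measure. H3K27me3, H3K9me3 and H3K4me1 were thus called at the Airn promoter in all 3 IκBα-WT libraries, and H3K27me3, H3K4me3 and H3K4me1 in all 3 IκBα-KO libraries. H3K4me3 was also called there in IκBα-WT replicate 3, and H3K27ac in IκBα-KO replicates 1 and 2.

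The Igf2r promoter carried calls of all 5 marks in all 6 libraries, and none of the marks separated the genotypes there in covered bp. H3K4me3 covered 942, 1191 and 918 bp in the IκBα-WT and 1195, 656 and 1382 bp in the IκBα-KO. The H3K4me3 fold of its peak was 12.7, 9.14 and 7.52 in the IκBα-WT and 15.9, 12.2 and 11.6 in the IκBα-KO, with overlapping groups (9.80 ± 2.67 and 13.2 ± 2.32, SD, n = 3 each). Its summits lay 104 to 382 bp downstream of the GENCODE 5′ end.

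H3K27me3 covered 4564 to 5001 bp of the Igf2r promoter window, at 54.2 ± 5.60 ChIP reads per kb in the IκBα-WT and 56.4 ± 7.71 in the IκBα-KO (SD, n = 3 each). A narrow H3K9me3 call lay there in every library as well, 3.4, 5.4 and 5.0 kb wide in the IκBα-WT and 3.0, 3.2 and 3.6 kb in the IκBα-KO. It held 46.8, 29.4 and 30.4 against 44.3, 32.8 and 32.5 reads per kb, where the Airn promoter of the IκBα-WT held 66.7 to 79.9. Its ratio to input was 2.42, 1.86 and 1.94 in the IκBα-WT and 1.67, 1.54 and 1.53 in the IκBα-KO, without overlap, as in 29% of 1936 promoters called in all 6 libraries. An H3K4me1 region of 22.8 to 25.6 kb reached from the Igf2r promoter through intron 1 into intron 2 at 67.7 to 75.7 reads per kb, with overlapping groups.

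**Figure D2:**
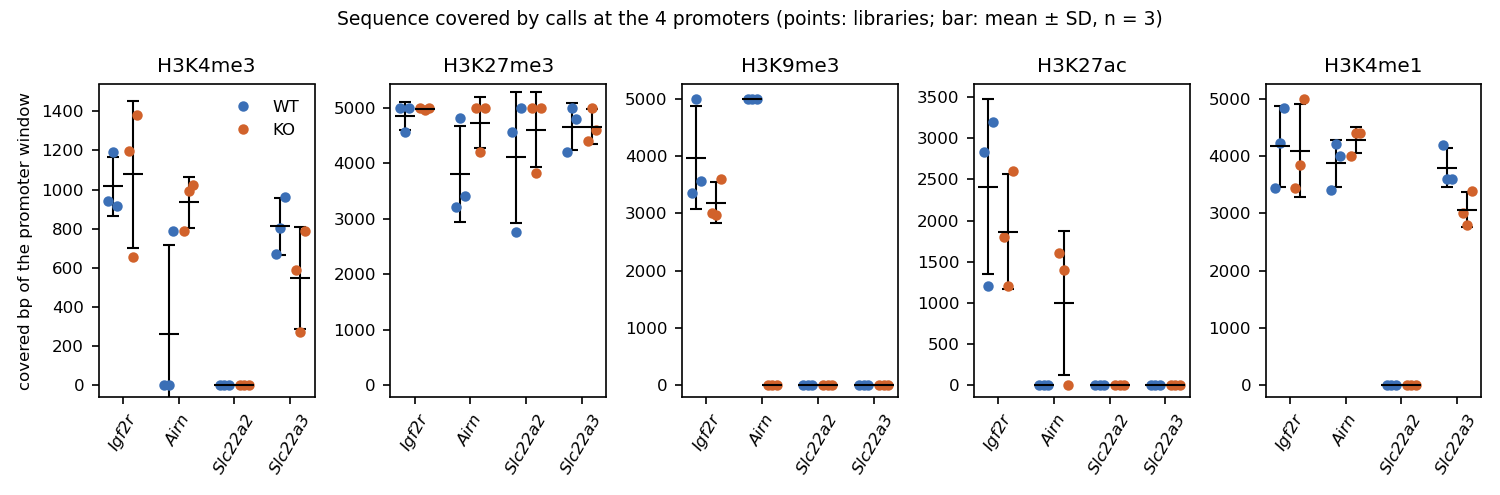
Covered bp of the promoter window of each of the 4 genes, 1 panel per mark, with a point for each library (IκBα-WT blue, IκBα-KO orange) and the mean ± SD of 3 libraries in black. H3K9me3 at Airn is at 5001 bp in every IκBα-WT and at 0 bp in every IκBα-KO library, and Slc22a2 has H3K27me3 alone.

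The difference between the Igf2r and Airn promoters inside a library does not use the genotypes and was tested with a two-sided exact sign-flip permutation test over the 6 libraries of a mark (64 sign patterns, the smallest p being 2 of 64). No mark passed after Benjamini-Hochberg adjustment over 5 marks. With so few libraries a mark could pass only if nearly all 5 marks reached the smallest p together. The lack of a pass therefore does not show that the 2 promoters are alike. H3K4me3 covered 449 ± 552 bp more (SD of the difference) of the Igf2r than of the Airn window, in 5 of 6 libraries (exact p = 0.094, adjusted 0.234). For H3K27ac the difference was 1640 ± 1445 bp, in 5 of 6 libraries (exact p = 0.094, adjusted 0.234). H3K27me3, H3K9me3 and H3K4me1 differed by 648 ± 877, 1082 ± 2386 and 55.2 ± 582 bp (exact p = 0.25, 0.375 and 0.656). The pooled values join unlike genotypes. The mean difference in the IκBα-WT and the IκBα-KO libraries was 755 and 143 bp for H3K4me3, 2412 and 867 bp for H3K27ac, and 1044 and 251 bp for H3K27me3. For H3K9me3 it was −1025 and 3188 bp, with Airn covered more in the IκBα-WT, and for H3K4me1 296 and −186 bp.

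Over whole genes, the H3K9me3 calls covered 22.2, 26.4 and 22.6 kb of the Igf2r window in the IκBα-WT and 6.2, 3.2 and 3.6 kb in the IκBα-KO. In the Airn window they covered 20.9, 23.9 and 21.5 kb against 5.4, 5.2 and 4.6 kb. Neither pair of groups overlapped, and 11.3% of the 16604 gene windows with H3K9me3 calls were lower in every IκBα-KO library. Most of the sequence behind both values is the same call. Without it, H3K9me3 in the whole domain came to 59.2, 55.0 and 49.0 kb in the IκBα-WT and 46.4, 45.4 and 41.0 kb in the IκBα-KO, and with it to 72.1 ± 5.02 and 44.3 ± 2.87 kb (SD, n = 3 each).

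H3K4me1 covered 33.2, 36.6 and 31.6 kb of the Igf2r window in the IκBα-WT and 39.0, 43.4 and 36.8 kb in the IκBα-KO, with no overlap, as in 10.2% of 24907 gene windows in this direction. The nearest values, 36.6 and 36.8 kb, were close, and its reads per kb overlapped (67.1 ± 2.05 and 66.9 ± 2.93, SD, n = 3 each). H3K27ac covered 35.6, 23.6 and 34.0 kb against 27.2, 15.8 and 15.0 kb, with overlap. Its calls in the part of Igf2r that Airn does not overlap, towards the 3′ end, covered 16.8, 12.2 and 18.2 kb in the IκBα-WT and 11.2, 0.11 and 2.6 kb in the IκBα-KO. These groups did not overlap, but the nearest values, 12.2 and 11.2 kb, were close. The share of all genes that differ in such a part was not computed. Over whole gene windows, 8.19% of 23084 with H3K27ac calls were lower in every IκBα-KO library, and that of Igf2r was not among them. In the shared part, H3K27ac lay over Igf2r introns 1 and 2 in all 6 libraries. Its 2 regions further along Airn intron 1 were called in all 6 libraries (within chr17:12789201-12796600) and, within chr17:12844401-12855800, in IκBα-WT replicate 3 and all 3 IκBα-KO libraries. The latter region also lies inside the neighbouring gene Mas1 (chr17:12841079-12868143, minus strand), so its calls cannot be assigned to Airn alone. H3K27me3 covered 40.8, 60.5 and 41.3 kb of the Airn window in the IκBα-WT and 62.4, 49.8 and 54.0 kb in the IκBα-KO, with overlap.

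**Figure D3:**
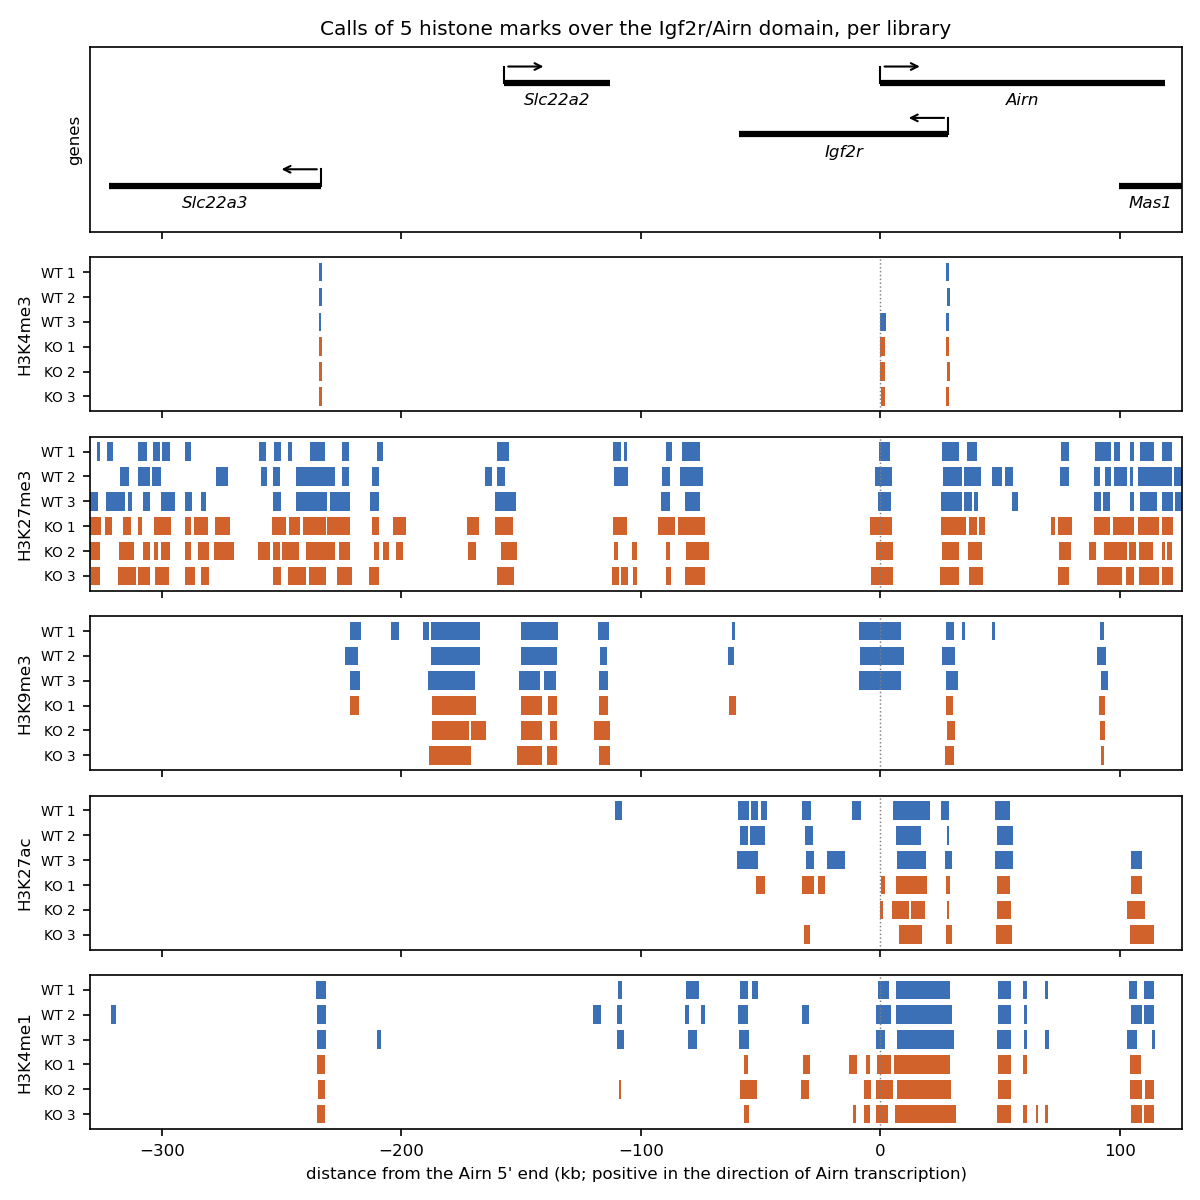
Calls of the 5 marks in each library over the whole domain, against distance from the Airn 5′ end in kb, with IκBα-WT in blue and IκBα-KO in orange and gene bodies drawn as lines (calls narrower than the axis divided by 400 are drawn at that width). H3K9me3 calls upstream of Slc22a2 and inside it are present in all 6 libraries, unlike the call over the Airn start.

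Slc22a2 and Slc22a3 had no H3K9me3 difference of this kind. Slc22a2 carried H3K9me3 in all 6 libraries, over 19.8, 17.8 and 17.4 kb in the IκBα-WT and 15.8, 18.4 and 19.2 kb in the IκBα-KO, mainly in a region within chr17:12589601-12606800 (introns 2 to 4). That region held 48.3, 45.5 and 49.2 against 53.7, 43.4 and 41.3 reads per kb and contained no match to TGCCGC. In every library the densest H3K9me3 region of the domain lay between Slc22a2 and Slc22a3, within chr17:12550401-12576600, at 90.3, 83.3 and 85.5 reads per kb in the IκBα-WT and 115.6, 79.8 and 101.3 in the IκBα-KO, with 1 match in 26200 bp. The region at the Igf2r promoter, within chr17:12767001-12773600 and called in all 6 libraries, held 3 matches. That is 0.455 per kb, against 0.529 in the sequence common to the IκBα-WT calls over the Airn start. Regions within chr17:12621601-12628400 and chr17:12832001-12836400, also called in all 6 libraries, held 0. Whether matches go with the absence of a call in the IκBα-KO was not tested. The Slc22a3 window had no H3K9me3 and no H3K27ac call in any library.

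Slc22a3 was the other member with H3K4me3, at its promoter, in all 6 libraries. The fold over input of its single peak was 11.7, 8.89 and 9.20 in the IκBα-WT and 5.47, 5.08 and 5.64 in the IκBα-KO. Means were 9.94 ± 1.54 and 5.40 ± 0.29 (SD, n = 3 each), without overlap, and 13.6% of the 13991 promoters called in all 6 libraries had a lower highest fold in every IκBα-KO library. Covered bp overlapped (672, 805 and 963 against 587, 272 and 788). H3K4me1 at the promoter covered 4200, 3600 and 3600 bp against 3000, 2800 and 3400 bp, without overlap, as in 10.4% of 22610 promoters in this direction, while its reads per kb overlapped.

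H3K27me3 at the Slc22a3 promoter held 86.3, 47.8 and 55.7 reads per kb in the IκBα-WT and 70.1, 60.3 and 77.1 in the IκBα-KO, and the groups overlapped. Its ratio to input was 3.84, 2.66 and 2.88 in the IκBα-WT and 4.53, 4.20 and 5.05 in the IκBα-KO, without overlap, the direction found in the 22% of promoters given for Airn. Over the whole Slc22a3 window H3K27me3 covered 30.6, 38.7 and 42.3 kb in the IκBα-WT and 53.9, 57.5 and 45.0 kb in the IκBα-KO, or 37.2 ± 6.01 and 52.2 ± 6.44 kb (SD, n = 3 each). These groups did not overlap, as in 10.7% of 19537 gene windows with H3K27me3 calls.

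Slc22a2 had no H3K4me3 and no H3K4me1 at its promoter. H3K27me3 lay there in all 6 libraries at 21.9 to 28.1 reads per kb in the IκBα-WT and 27.2 to 28.3 in the IκBα-KO, below every value at the other 3 promoters. H3K4me1 in the Slc22a2 window covered 1.6, 5.6 and 2.1 kb in the IκBα-WT and 0, 1.2 and 0 kb in the IκBα-KO. With Slc22a3 at 4.2, 5.8 and 3.6 against 3.0, 2.8 and 3.4 kb, 2 members were lower in every IκBα-KO library, as were 15.6% of gene windows. Apart from a call of 3.6 kb in IκBα-WT replicate 2, the Slc22a2 values came from a region beyond its 3′ end, within chr17:12631401-12634400, called in 3 IκBα-WT and 1 IκBα-KO libraries.

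**Figure D4:**
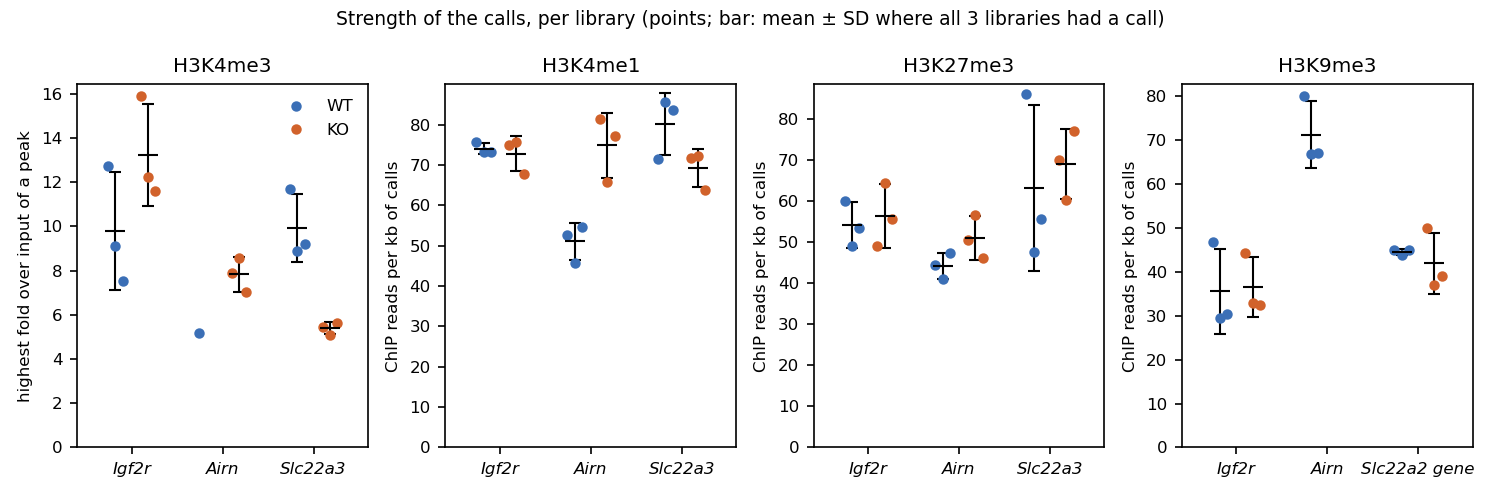
Strength of calls per library (points, IκBα-WT blue, IκBα-KO orange) with mean ± SD where all 3 libraries had a call, as highest fold over input for H3K4me3 and ChIP reads per kb for H3K4me1, H3K27me3 and H3K9me3, at promoters except for Slc22a2, where the gene window is shown. At Airn the IκBα-KO libraries sit above the IκBα-WT libraries for H3K4me1 (65.8 to 81.5 against 45.8 to 54.8), and at Slc22a3 the H3K4me3 folds of the IκBα-KO (5.08 to 5.64) sit below those of the IκBα-WT (8.89 to 11.7).

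Of 10 neighbouring genes, all had H3K9me3 calls in their gene windows, and none of them was lower in every IκBα-KO library, while Wtap, a subunit of the RNA m6A methyltransferase, was higher, as were 4.52% of gene windows. For H3K27me3, 5 neighbours had calls and Plg, the plasminogen gene, was higher in every IκBα-KO library, with a window that overlaps that of Slc22a3. At promoters, H3K4me3 was higher in every IκBα-KO library for 3 of 7 neighbours with calls, Pnldc1, Mrpl18 and Tcp1, the last 2 of which have overlapping windows, and lower for Map3k4, the directions found in 21.4% and 7.31% of promoters.

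The 3 promoters most like that of Airn among 31768 genes over 1 Mb away, by the mean absolute difference of the covered share over 30 libraries, were those of Abcb4, Mei1 and Rimkla, 15.1, 15.3 and 15.8 percentage points away. Their H3K9me3 cover was 23.7%, 57.3% and 50.2% of the window in the IκBα-WT and 9.01%, 22.0% and 0% in the IκBα-KO, against 100% and 0% at Airn. For Igf2r they were Igfbp3, Wscd1 and Repin1, 11.4, 12.7 and 13.1 points away. Igfbp3, which encodes a carrier of insulin-like growth factors, had 100% H3K27me3 cover in both genotypes and H3K9me3 cover of 47.6% and 50.2%.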

How the data were processed

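The members and gene lists were chosen with earlier results of these data known. ChIP-seq calls of 30 libraries were used (5 marks, 3 IκBα-WT and 3 IκBα-KO each); the 8 inputs entered through the input counts in the lists. Per the submitters' notes and the study's methods, the authors trimmed reads (Trim Galore 0.6.6), aligned them to GRCm38 (Bowtie2 2.4.4, not stated for H3K27ac), removed multimapped reads, marked duplicates (SAMtools 1.15), discarded the H3K27me3 spike-in reads and called each library separately against its input. H3K9me3 is not covered by those methods. The deposited H3K4me3 lists (MACS2 2.2.7.1) give a fold ratio over input, −log10 p-values and q-values and a score. The deposited epic2 lists (0.0.52, in steps of 200 bp) give a count of ChIP and of input reads, a p-value, an FDR, a log2 fold change and a score. All calls had an FDR or q-value under 0.05. The labels name one antibody for H3K27ac and H3K4me1, and the methods another for H3K27ac.

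Covered bp, reads per kb of called sequence (a call's count shared out by length) and ChIP over input were computed per window with Python 3.11.15 and numpy 2.4.6, tested on simulated data. Reads per kb are not scaled for depth. Each background percentage is the share of GENCODE genes with a call in any library (for densities and folds, in all 6) whose 3 and 3 values did not overlap in that direction. The 4 members, 10 fixed neighbours (as counts, with those that differed named except for 1 result that is not reported here) and the 3 promoters most like Igf2r and Airn were named. Alternatives were no or 10 kb flanks, promoter windows of 1000 bp on either side or 5000 bp upstream to 100 bp downstream, a threshold of 0.01, equal numbers of top-ranked calls, size factors, ChIP over input, density over the whole window, and leaving out each library.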

Additional observations from a re-analysis of the deposited data

How the results depend on the processing

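No paired analysis was possible because the values that set the genotypes against each other carry no test, and the labels do not say that a replicate number marks a shared clone or day. The H3K9me3 difference at the Airn promoter (IκBα-KO minus IκBα-WT, −5001 bp) was the same at a threshold of 0.01, with equal numbers of top-ranked calls and without any single library, and it followed the window's length at −2001 bp with 1000 bp on either side and −5101 bp from 5000 bp upstream to 100 bp downstream. In the last window, which ends before most of the peaks, the H3K4me3 difference was 26 bp in place of 673, and H3K27ac was 70.3 bp in place of 1000. The H3K27me3 difference of 927 bp became 127 and 2000 bp, and that of H3K4me1, 404 bp, became 30.0 and 1090 bp, in the narrow and the upstream window. Without IκBα-WT replicate 3 the H3K4me3 difference at Airn was 935 bp, and without IκBα-WT replicate 1 or 2 it was 542 bp. Over the whole domain the H3K9me3 difference of −27867 bp was −17867 bp with equal numbers of top-ranked calls. The H3K4me3 difference between the Igf2r and Airn promoters reached the smallest p, 2 of 64 in the exact test, in both other windows, and did not pass after adjustment. The H3K9me3 difference (Igf2r minus Airn, 1082 bp) was −1025 bp in the IκBα-WT libraries alone. The H3K4me1 difference of 55.2 bp was −6.33 bp with 1000 bp on either side, −286 bp in the upstream window and −186 bp in the IκBα-KO libraries alone, and −101 to 181 bp on leaving out each library. The log2 ratio of H3K4me1 density at Airn was 0.55, and 0.48 to 0.70 over its alternatives. For single genes and promoters, leaving out covered bp at the Airn promoter, 393 values under alternatives stayed within 1 SD, 25 moved further and 0 changed sign where the groups had not overlapped. For covered bp at the Airn promoter and in the whole domain, and for the difference between the 2 promoters, 9 values moved further and 6 were counted as changed in sign. For Nfkbia, in the upstream window, which was tried after seeing the data, H3K4me3 covered 479, 731 and 704 bp in the IκBα-WT and 0, 360 and 586 bp in the IκBα-KO, with overlap. The background shares for ChIP over input, for H3K27ac and for the neighbours were added after seeing the data. Depth limits absent calls, which are reads under a threshold, and arms of 3 libraries limit every mean.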
